A study of Mus musculus with 6 samples.

Results

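HOX genes encode homeodomain transcription factors that lie in 4 clusters, A to D, and are numbered by their place in the cluster, so that genes with the same number in different clusters are paralogs. All genes of the deposited count table named Hoxa, Hoxb, Hoxc or Hoxd followed by digits were taken, which gave 36 of 23867 genes. Hoxb1, Hoxb13 and Hoxd12 were not analysed here. They were measured by bulk RNA sequencing of mouse chondrocytes, the cells of cartilage, in 6 libraries. Of these, 3 carried the genotype label MFN2Col2a1-/- (called the knockout here, libraries CRE1, CRE2 and CRE3) and 3 the label MFN2wt (wild type, libraries WT1, WT2 and WT3). The label joins Mfn2, which encodes a mitochondrial fusion protein, to the cartilage collagen gene Col2a1, but it describes neither the alleles nor the driver of the deletion. Age, sex, skeletal site and culture were not given in the labels, and they do not tell if each library stands for its own animal. P-values therefore measure the spread between these libraries, which may be technical. The labels give no treatment for either group.

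During development HOX genes are switched on in the order of their numbers along the body axis and along the limb, and adult connective tissue, bone and cartilage cells keep part of the pattern of the place where they arose. In mouse limbs the genes numbered 9 and above act from the shoulder or hip outward: paralogs 10 shape the upper segment, paralogs 11 the middle segment and paralogs 13 the hand or foot. Low-numbered genes are best known from the hindbrain, neck and pharyngeal region. The set of HOX transcripts in a sample is therefore often read as a record of where its cells arose. The comparison along paralog number asks how alike that record is in the knockout and wild-type libraries.

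The libraries held 31481779 to 37814723 counts in the knockout against 39267487 to 40152687 in the wild type, and Mfn2 stood at 64.0, 56.5 and 59.4 CPM in knockout libraries, against 108, 108 and 106 in wild-type libraries. Levels compared between groups are in CPM, that is, counts relative to library size after correction by TMM factors, and levels compared between genes are FPKM, which is also divided by gene length. A gene was called when its Benjamini-Hochberg adjusted p over all tested genes was under 0.05 in edgeR's quasi-likelihood test. Fold changes are on the log2 scale, knockout over wild type, and ± gives the SD over 3 libraries. Markers of chondrocytes were present in every library, but 15 of 19 were called lower and 4 higher in the knockout, and their summed level was 4612 to 4843 CPM among knockout libraries, against 9406 to 9594 CPM among wild-type libraries. All 14 macrophage markers tested were lower, with a summed level of 330.1 to 341 CPM among knockout libraries, against 3051 to 3073 CPM among wild-type libraries. Over all 15028 tested genes 30.7% were called higher and 32.1% lower, and the marker counts given here stand beside those shares. Fibroblast markers summed to 28776 to 29728 CPM among knockout libraries, against 22389 to 22595 CPM among wild-type libraries, with 6 of 11 tested members higher and 3 lower. The abundant members went different ways, and those named next were picked out after their values were seen. Dcn averaged 6566 ± 226 CPM over knockout libraries, against 2048 ± 46.6 over wild-type libraries. Col3a1 averaged 9778 ± 327 against 5939 ± 62.2 CPM, but Col1a2 4868 ± 159 against 7606 ± 43.3 CPM, and Col1a1 was not called (log2 fold change 0.0064). None of these markers was at 0 throughout a group. The part of these marker shifts in the HOX values was not tested, and in bulk RNA fewer cells of a type and less RNA per cell cannot be told apart.

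Both groups held the same members at the top of the HOX profile, with its weight on paralogs 10 and 11. Per length, Hoxa10 was the highest member in each of the 6 libraries. It stood at 30.1, 30.9 and 30.1 FPKM in knockout libraries, against 47.6, 47.9 and 47.8 in wild-type libraries. Hoxa11 stood at 18.4, 17.8 and 17.6 FPKM in knockout libraries, against 18.7, 17.6 and 17.9 in wild-type libraries, and Hoxc10 stood at 12.1, 14.4 and 14.1 FPKM in knockout libraries, against 19.2, 20.6 and 19.4 in wild-type libraries. Hoxa11 was above Hoxc10 in each knockout library and below it in each wild-type library. By group mean the next members in both groups were Hoxc6, at 8.87, 9.87 and 8.77 FPKM in knockout libraries, against 9.80, 10.2 and 10.3 in wild-type libraries, and Hoxd8, at 5.45, 6.90 and 5.65 FPKM in knockout libraries, against 5.87, 7.06 and 6.18 in wild-type libraries. Together Hoxa10, Hoxa11 and Hoxc10 made up 54.1% ± 0.530 of the summed HOX FPKM in the knockout against 58.0% ± 0.261 in the wild type (SD, n = 3 libraries each). Mean FPKM was at least 1 in both groups for 17 members, in the wild type alone for 4 (Hoxa3, Hoxa13, Hoxc5 and Hoxc13) and in the knockout alone for 0, and it was under 1 in both groups for 15. FPKM is scaled to total counts, which puts knockout values lower than TMM factors do. Hoxa3 (0.951 in the knockout against 1.24) and Hoxc5 (0.920 against 1.33) lay near that limit and were not called with TMM factors. As a description over the 36 members, which share each library and its depth, Spearman's rho of FPKM was 0.951 to 0.970 between a knockout and a wild-type library, 0.977 to 0.980 between knockout libraries and 0.986 to 0.993 between wild-type libraries.

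**Figure D1:**
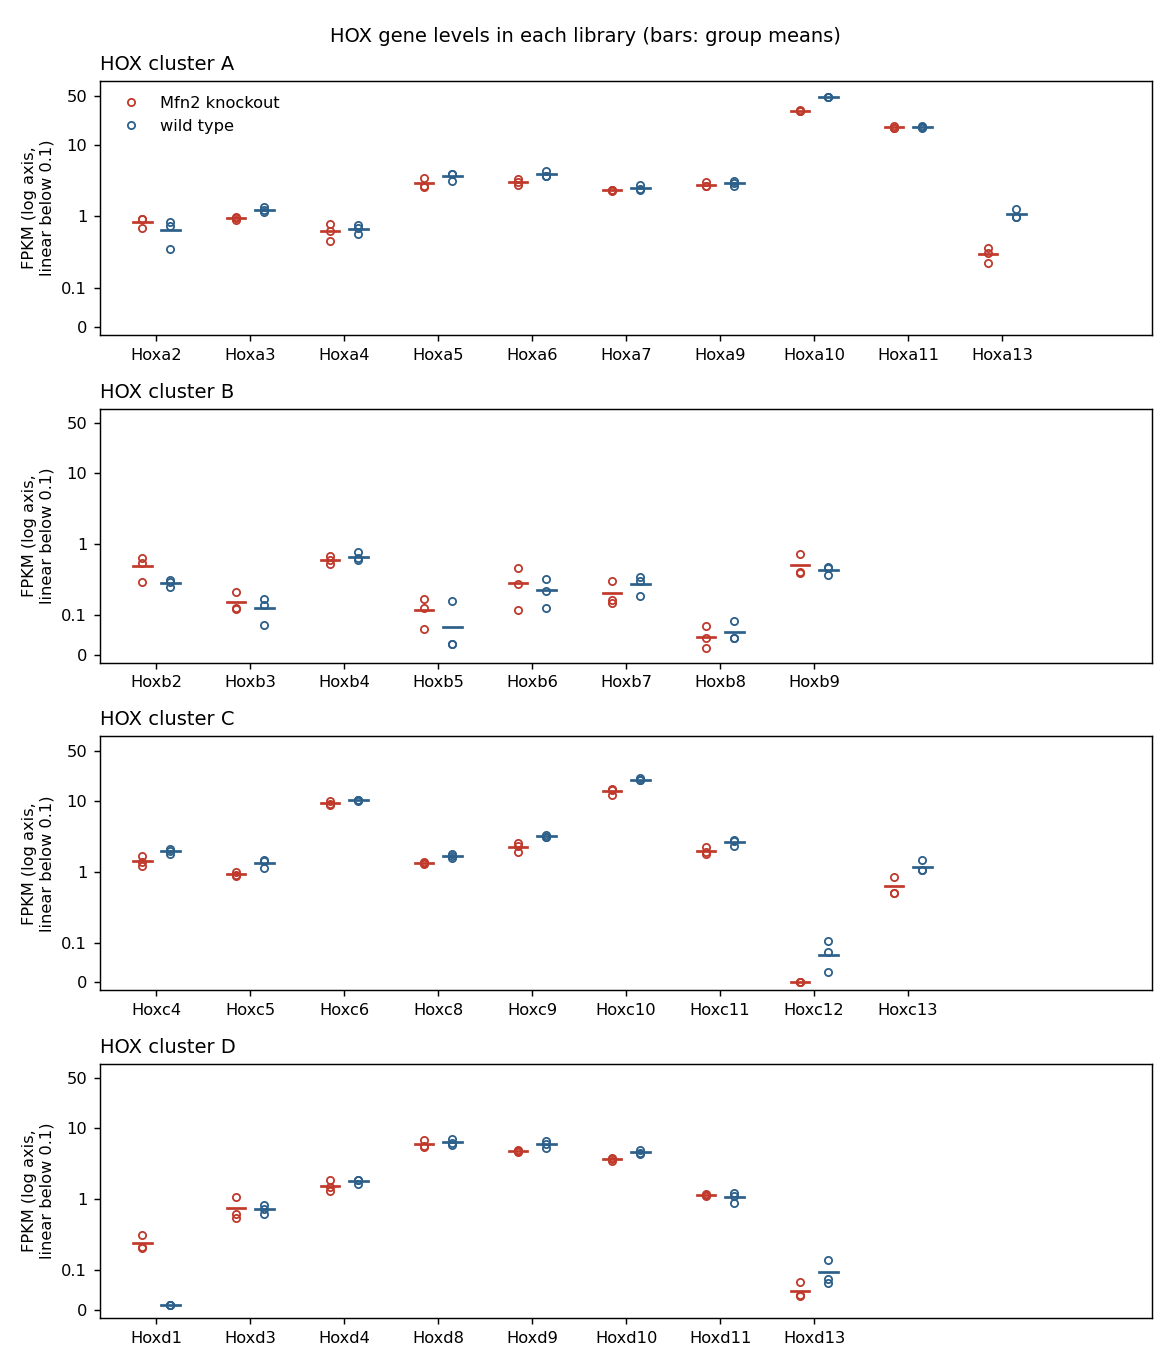
FPKM of 35 of the 36 HOX genes (vertical axis, logarithmic above 0.1) in the 3 Mfn2 knockout libraries (red, left) and the 3 wild-type libraries (blue, right), by cluster and paralog number; circles are libraries and bars are group means. Hoxa10, Hoxa11, Hoxc10 and Hoxc6 stand highest in both groups, cluster B stays under 1 FPKM in every library, and Hoxd1 and Hoxa13 show the widest gaps between the groups among members tested.

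The summed FPKM of all members was 114 ± 3.14 in the knockout against 148 ± 0.763 in the wild type, a ratio of 0.774, and the ratio was 0.889 for their summed CPM after TMM scaling. The clusters contributed unequally. Cluster A held 57.0, 53.1 and 54.2% of the summed HOX FPKM in the knockout libraries, against 57.0, 55.1 and 56.9% in wild-type libraries. Cluster C held 25.7, 27.9 and 28.1% in knockout libraries, against 27.7, 28.6 and 28.4% in wild-type libraries, and in neither cluster were the groups separated. Cluster D held 15.6, 16.8 and 15.3% in knockout libraries, against 13.9, 14.9 and 13.1% in wild-type libraries, a higher share in each knockout library. That share was of a smaller HOX total. The summed FPKM of cluster D was 18.2 ± 1.35 in the knockout against 20.6 ± 1.37 in the wild type, and its summed CPM overlapped. Cluster B was close to silent, with 1.65, 2.31 and 2.35% in knockout libraries, against 1.45, 1.34 and 1.57% in wild-type libraries, again a higher share in each knockout library. Its summed FPKM overlapped between the groups, at 1.85, 2.73 and 2.66 in knockout libraries, against 2.16, 1.98 and 2.30 in wild-type libraries. The terminal genes Hoxc12 and Hoxd13, whose products belong to the distal limb and tail programme, were near the detection limit: Hoxd13 had 3, 7 and 3 reads in knockout libraries, against 7, 14 and 8 in wild-type libraries, and Hoxc12 had 0, 0 and 0 reads in knockout libraries, against 1, 4 and 3 in wild-type libraries. A count of 0 allows up to 3 reads, so no fold is given for Hoxc12. Hoxb5, with 10, 9 and 4 reads in knockout libraries, against 2, 2 and 12 in wild-type libraries, and Hoxb8, with 4, 2 and 7 reads in knockout libraries, against 5, 5 and 10 in wild-type libraries, were as sparse. These 4 members did not pass the filter on low counts, which left 32 tested.

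Few HOX genes passed the test between the groups. Of the 32 tested, 8 were called, 3 higher and 5 lower in the knockout, where 62.7% of all 15028 tested genes were called, 30.7% higher and 32.1% lower. By mean level, 3 of 6 HOX members under 1 CPM were called, where 37.7% of all 2019 genes there were. From 1 to 10 CPM it was 2 of 18, where 59.0% of 3665 were, and from 10 to 100 CPM 2 of 7, where 66.6% of 7418 were. Above 100 CPM stood Hoxa10 alone, which was called, as were 81.1% of 1926 genes. The groups did not overlap in 10 of the 32 members, 4 higher and 6 lower, where 67.1% of all tested genes did not overlap. The median log2 fold change of the tested members was −0.045, beside −0.021 over all tested genes, and the median size of the change without its sign was 0.22, beside 0.34. The fitted change was under 1.5-fold in 27 of the 32, and it was called and at least 2-fold in 3 (Hoxd1, Hoxb2 and Hoxa13), where 19.7% of all genes were both. The number of falls rested on how libraries were scaled: with total counts in place of TMM factors, which moved the median of all genes by −0.21, 1 member was called higher and 11 lower, where 69.3% of all genes were called, 18.6% higher and 50.8% lower. With upper-quartile factors 1 was higher and 9 lower, where 64.2% of all genes were called, 24.4% higher and 39.8% lower. Without WT3 the number lower was 3.

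The changes that passed lay on either side of the middle of the paralog series. Among the 7 members numbered 1 to 3, 2 were called higher and 0 lower (median log2 fold change 0.47), while with total counts Hoxd1 alone was higher and Hoxa3 was lower. Among the 13 tested members numbered 4 to 8, 0 passed edgeR's test (median 0.0064). Of these, Hoxc4 and Hoxc5 were called lower with upper-quartile factors, those and Hoxa6 with total counts, and Hoxc4 without CRE3 (adjusted p = 0.0143). Among the 12 tested members numbered 9 to 13, 1 was called higher and 5 lower (median −0.16). With total counts 0 were higher and 7 lower, since Hoxa11 was no longer called and Hoxd9 (adjusted p = 0.0103) and Hoxd10 (0.00322) were. Members of a low level pass the filter through the group in which they are higher, so these counts describe the members and carry no test of the class.

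**Figure D2:**
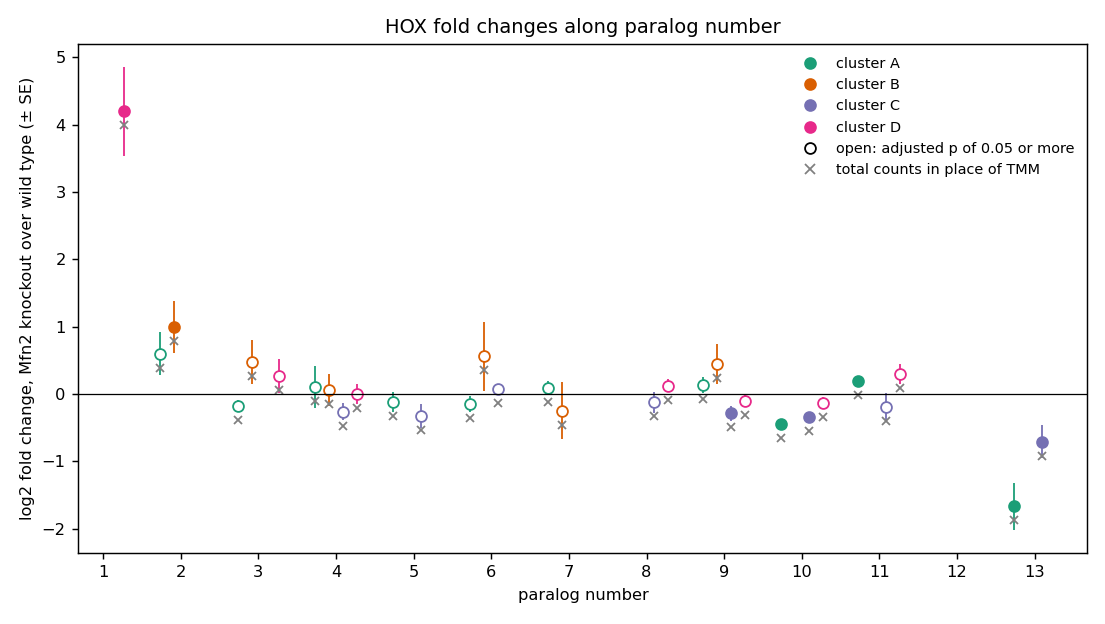
Log2 fold change, Mfn2 knockout over wild type (vertical axis, ± SE), against paralog number for 31 of the 32 tested HOX genes, coloured by cluster; filled points passed an adjusted p of 0.05 in edgeR's test and grey crosses give the value with total counts in place of TMM factors. Hoxd1 and Hoxb2 stand above 0 at the low end and Hoxa13 and Hoxc13 below 0 at the high end, and every point from paralog 4 to 8 is open.

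The largest fitted rise was that of Hoxd1, a low-numbered gene known in developing neural and pharyngeal tissue, but it rested on few reads. Hoxd1 had 12, 15 and 19 reads in knockout libraries, against 1, 1 and 1 in wild-type libraries. Summed over libraries these are 46 reads for the knockout and 3 for the wild type, a ratio of 20.8 after scaling with an exact 95% counting interval of 6.68 to 104, which covers counting error alone. The fitted log2 fold change was 4.20 (SE 0.659, adjusted p = 4.53e-05), and at 0.412, 0.424 and 0.632 CPM in the knockout libraries it stayed among the least abundant members. Hoxb2, a hindbrain gene, was called higher on similarly low counts, with 0.550, 1.02 and 1.197 CPM in knockout libraries, against 0.399, 0.474 and 0.509 in wild-type libraries (log2 fold change 1.00, SE 0.385, adjusted p = 0.0342). The groups did not overlap, but CRE1 lay close to the wild type, and without CRE2 (adjusted p = 0.0940), CRE3 (0.139), WT1 (0.110), WT2 (0.0821) or WT3 (0.0655) the call was lost, as it was in 10 of 14 alternatives in all.

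Both tested paralogs numbered 13 fell. Hoxa13, required for the digits and for the lower urogenital tract, stood at 0.516, 0.311 and 0.432 CPM in knockout libraries, against 1.196, 1.21 and 1.57 in wild-type libraries. That is 15, 11 and 13 reads in knockout libraries, against 51, 51 and 68 in wild-type libraries, with no overlap between the groups (log2 fold change −1.67, SE 0.344, adjusted p = 5.83e-04). Hoxc13, a gene of hair follicles, nails and the tail, stood at 1.34, 2.20 and 1.33 CPM in knockout libraries, against 2.37, 2.37 and 3.29 in wild-type libraries (log2 fold change −0.70, SE 0.245, adjusted p = 0.0210). CRE2 lay just below the lowest wild-type library, and the fall was not called without CRE3 (adjusted p = 0.0702) or without WT3 (0.118). Keratinocytes of hair and nail express Hoxc13, and the keratinocyte markers summed to 6.50 to 10.1 CPM among knockout libraries, against 13.6 to 14.3 CPM among wild-type libraries, with 0 of 4 tested members higher and 2 lower (all tested genes: 30.7% and 32.1%). That lower sum was carried by Trp63, a basal epithelial factor, at 3.76 ± 1.01 CPM over knockout libraries, against 10.4 ± 0.270 over wild-type libraries (log2 fold change −1.46, SE 0.146, adjusted p = 3.32e-07), with a small part from the desmosome gene Dsp (log2 fold change −1.29, SE 0.476, adjusted p = 0.0284). The keratins had higher means in the knockout and were not called: Krt10 averaged 2.72 ± 0.163 CPM over knockout libraries, against 2.08 ± 0.320 over wild-type libraries (log2 fold change 0.38, SE 0.196, adjusted p = 0.104) and Krt14 0.518 ± 0.417 CPM over knockout libraries, against 0.243 ± 0.0698 over wild-type libraries (log2 fold change 1.09, SE 0.579, adjusted p = 0.116), while Krt5 and Krt1 were under 1 CPM in every library and not tested. The part of these markers in the fall of Hoxc13 was not tested. Hoxd13 could not be tested.

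A pair of limb-segment genes of high level fell by a small amount. Hoxa10 stood at 97.1, 98.3 and 96.5 CPM in knockout libraries, against 132, 133 and 132 in wild-type libraries (log2 fold change −0.45, SE 0.0346, adjusted p = 1.64e-08), and the knockout libraries lay between 96.5 and 98.3 CPM. Hoxc10, a gene of hindlimb and lumbar positions, stood at 24.99, 29.5 and 29.0 CPM in knockout libraries, against 34.2, 36.7 and 34.4 in wild-type libraries (log2 fold change −0.33, SE 0.0645, adjusted p = 3.29e-04). The third paralog, Hoxd10, stood at 11.1, 11.3 and 10.4 CPM in knockout libraries, against 12.9, 11.8 and 11.3 in wild-type libraries, overlapped between the groups and was not called (log2 fold change −0.13, SE 0.0873, adjusted p = 0.218). It was called lower with upper-quartile factors (adjusted p = 0.0399) and with total counts (0.00322). Hoxc9, a neighbour of Hoxc10 active at thoracic and hindlimb positions, was called lower at the threshold, with 5.64, 6.70 and 7.41 CPM in knockout libraries, against 8.47, 7.84 and 7.80 in wild-type libraries (log2 fold change −0.29, SE 0.117, adjusted p = 0.0445); it was not called without CRE1 (adjusted p = 0.190), CRE2 (0.0796), WT1 (0.136), WT2 (0.0706) or WT3 (0.0686).

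Hoxa11, which patterns the forearm and shank, did not follow its neighbour Hoxa10. It stood at 45.4, 43.3 and 43.3 CPM in knockout libraries, against 39.8, 37.4 and 38.0 in wild-type libraries and was called higher (log2 fold change 0.20, SE 0.0487, adjusted p = 0.00242), but this direction depended on the scaling: with total counts the log2 value was −0.012 (adjusted p = 0.832). The antisense gene Hoxa11os overlaps Hoxa11 and stood at 9.87, 9.21 and 8.01 CPM in knockout libraries, against 6.47, 6.75 and 6.69 in wild-type libraries (log2 fold change 0.44, SE 0.108, adjusted p = 0.00210). With total counts it was not called (log2 value 0.23, adjusted p = 0.0647), nor in limma on unfiltered log2(FPKM + 1). The counting is not stated to use strand, so reads of the pair cannot be told apart. Ratios within a library do not depend on its scaling, and those given next were chosen after the values were seen. The FPKM ratio of Hoxa10 to Hoxa11 was 1.64, 1.74 and 1.71 in knockout libraries, against 2.54, 2.72 and 2.67 in wild-type libraries. For Hoxc10 over Hoxa11 it was 0.656, 0.811 and 0.797 in knockout libraries, against 1.02, 1.17 and 1.08 in wild-type libraries. For Hoxa13 over Hoxa11 it was 0.0197, 0.0124 and 0.0173 in knockout libraries, against 0.0520, 0.0560 and 0.0717 in wild-type libraries. In each ratio every knockout library lay below every wild-type library. The ratios share Hoxa11 as denominator and each numerator was already called lower, so they are linked and add no separate support.

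Shares of HOX output by class are also free of scaling, and that of the high-numbered members as a class was lower in the knockout. Members numbered 9 to 13 held 69.9, 69.3 and 70.3% of the summed HOX FPKM in the knockout libraries, against 73.7, 74.0 and 73.2% in wild-type libraries, a difference of −3.80 percentage points. Members numbered 4 to 8 held 26.7, 27.3 and 26.1% in knockout libraries, against 24.0, 23.6 and 24.0% in wild-type libraries. Members numbered 1 to 3 held 3.39, 3.41 and 3.55% in knockout libraries, against 2.33, 2.41 and 2.73% in wild-type libraries. The groups did not overlap in any class, yet the posterior genes held at least 69.3% in every library. Within the class numbered 9 to 13 the shares went both ways. Paralogs 10 averaged 41.6% in the knockout against 48.8% in the wild type, paralogs 13 0.842% against 1.60% and Hoxc12 0% against 0.0474%. Paralogs 11 averaged 18.4% in the knockout against 14.7% in the wild type, and paralogs 9 9.02% against 8.43%. For paralogs 9, 10, 11 and 13 the groups did not overlap. The class shares of a library sum to 100%, so they are linked and not separate shifts. In summed CPM, members numbered 9 to 13 averaged 214 ± 3.26 over knockout libraries, against 255 ± 2.63 over wild-type libraries. Members numbered 4 to 8 averaged 88.1 ± 3.36 against 88.2 ± 0.792 CPM. Those numbered 1 to 3 averaged 19.3 ± 0.922 against 18.5 ± 0.337 CPM, and the groups of both overlapped. The shares are descriptions without a test, since Hoxa10 alone held 26.6% ± 0.365 in the knockout against 32.4% ± 0.217 in the wild type, and without it the difference was −2.09 percentage points.

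**Figure D3:**
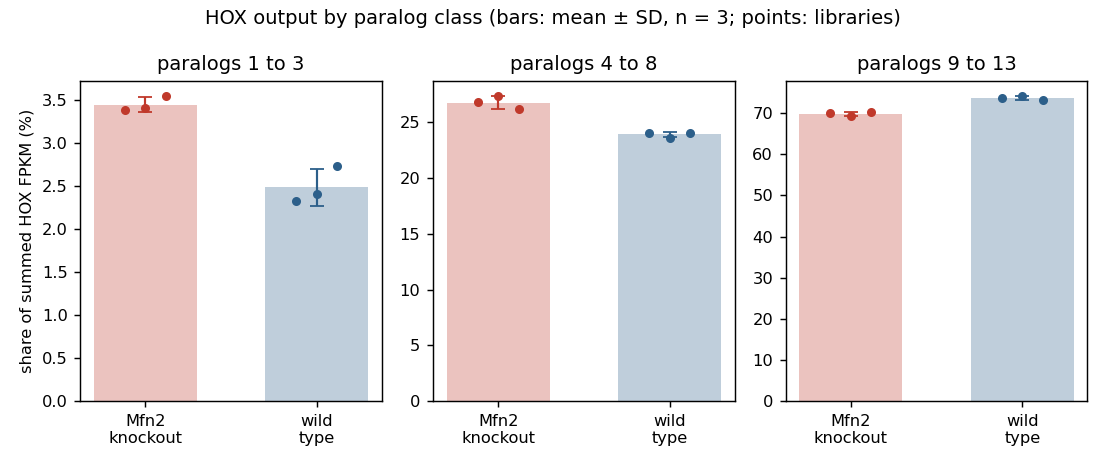
Share of the summed HOX FPKM (vertical axis, percent, starting at 0 and scaled separately in each panel) held by paralogs 1 to 3, 4 to 8 and 9 to 13 in Mfn2 knockout (left) and wild-type (right) libraries; bars are means, whiskers SD over 3 libraries and points libraries. Paralogs 9 to 13 average 69.8% in the knockout against 73.6% in the wild type.

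The promoters of the member that rose most and of the cluster A members that fell are shown because HOX promoters are textbook targets of Polycomb and Trithorax proteins, which in mammals gather at CpG-rich DNA. The sequences come from RefSeq on GRCm38.p6, not the GRCm39 build named for the deposited data, run 5′ to 3′ on the gene's strand from 250 bases before to 50 after the start, and have CpG dinucleotides in capitals. The table held 22 promoters of 20 of the 36 members, and Hoxa10 has a pair of starts.
Hoxd1, chr2:74762730-74763029, plus strand: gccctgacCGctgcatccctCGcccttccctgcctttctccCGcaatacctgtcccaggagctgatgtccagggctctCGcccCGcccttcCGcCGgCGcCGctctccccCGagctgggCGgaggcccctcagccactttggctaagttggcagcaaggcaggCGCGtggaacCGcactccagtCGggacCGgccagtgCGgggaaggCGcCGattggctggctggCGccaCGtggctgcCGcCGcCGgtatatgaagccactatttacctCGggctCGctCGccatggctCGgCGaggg
Hoxa13, chr6:52260831-52261130, minus strand: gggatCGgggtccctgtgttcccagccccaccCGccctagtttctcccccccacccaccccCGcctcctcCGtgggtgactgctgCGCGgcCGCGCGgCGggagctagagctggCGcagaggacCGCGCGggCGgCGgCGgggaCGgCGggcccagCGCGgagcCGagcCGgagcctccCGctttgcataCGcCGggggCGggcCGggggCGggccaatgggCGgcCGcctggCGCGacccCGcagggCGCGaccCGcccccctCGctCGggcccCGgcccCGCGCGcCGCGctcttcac
Hoxa10, start farther from Hoxa9, chr6:52240805-52241104, minus strand: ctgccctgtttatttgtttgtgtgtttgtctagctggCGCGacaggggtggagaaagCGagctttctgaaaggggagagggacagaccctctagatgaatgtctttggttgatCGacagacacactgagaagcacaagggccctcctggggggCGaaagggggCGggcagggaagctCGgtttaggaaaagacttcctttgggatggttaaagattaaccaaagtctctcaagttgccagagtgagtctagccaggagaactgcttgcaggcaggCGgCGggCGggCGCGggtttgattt
Hoxa10, start nearer to Hoxa9, chr6:52234890-52235189, minus strand: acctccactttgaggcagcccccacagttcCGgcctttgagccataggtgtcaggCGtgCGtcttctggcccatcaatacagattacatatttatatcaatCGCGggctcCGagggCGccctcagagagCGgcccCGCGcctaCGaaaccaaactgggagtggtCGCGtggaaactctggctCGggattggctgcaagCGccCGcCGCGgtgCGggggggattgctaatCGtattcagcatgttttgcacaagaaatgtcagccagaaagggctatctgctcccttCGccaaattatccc
The Hoxd1 window holds 29 CpG dinucleotides and the Hoxa13 window 45, so the member that rose and the member that fell most are both CpG-rich. The Hoxa10 windows hold 12 and 21. With CpG-rich taken as at least 60% of the expected CpG number and at least 50% G and C, 11 of the 22 HOX promoters and 33.5% of all 32851 promoters passed. The half-site AGGTCA of retinoic acid receptors, searched on both strands, was in the windows of 7 of the 20 members (Hoxa5, Hoxb4, Hoxc4, Hoxd3, Hoxd4, Hoxd8 and Hoxd10) and in 16.3% of all promoters. Direct repeats of this half-site with a spacer of 2 or 5 bases were in 0 of the 22. The letters TTTATNG, a core of CDX and high-numbered HOX proteins, were in those of Hoxb8 and Hoxd4 and in 10.9% of all promoters. TGATTNAT, a core shared by HOX and PBX proteins, was in those of Hoxa2 and Hoxd11 and in 3.22% of all. TATAAA was in those of Hoxa10 (the start nearer to Hoxa9), Hoxb8, Hoxd4 and Hoxd13 and in 13.6% of all. None of these letters was in the Hoxd1 and Hoxa13 windows.

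The 24 tested members that were not called had log2 fold changes of −0.32 to 0.60, 13 above 0 and 11 below, with adjusted p of 0.0740 to 0.974; the value in parentheses after each is its log2 fold change. Of the low-numbered ones, Hoxa2, which patterns the second pharyngeal arch, stood at 1.75, 1.30 and 1.76 CPM in knockout libraries, against 0.586, 1.21 and 1.37 in wild-type libraries (0.60). Hoxa3, a gene of the pharyngeal region, stood at 10.7, 11.2 and 11.5 CPM in knockout libraries, against 13.6, 12.4 and 11.6 in wild-type libraries (−0.17). For Hoxa3 the groups did not overlap, and it was called lower with upper-quartile factors (adjusted p = 0.0169) and with total counts (0.00143). Hoxb3 stood at 1.27, 2.18 and 1.30 CPM in knockout libraries, against 0.680, 1.26 and 1.504 in wild-type libraries (0.47). Hoxd3 stood at 1.96, 3.33 and 1.73 CPM in knockout libraries, against 1.97, 1.66 and 2.24 in wild-type libraries (0.27). In both CRE2 was the highest knockout library and the groups overlapped.

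Among the cervical and thoracic paralogs of cluster A, Hoxa4 stood at 0.756, 1.27 and 1.03 CPM in knockout libraries, against 1.08, 0.805 and 0.972 in wild-type libraries (0.11). Hoxa5, which acts in the lung and neck skeleton, stood at 6.53, 4.69 and 4.95 CPM in knockout libraries, against 6.21, 5.07 and 6.20 in wild-type libraries (−0.12). Hoxa6 stood at 8.25, 7.40 and 6.62 CPM in knockout libraries, against 9.03, 7.72 and 7.87 in wild-type libraries (−0.15). The groups of these overlapped, with Hoxa5 highest in CRE1. Hoxa7 stood at 8.77, 8.17 and 8.61 CPM in knockout libraries, against 8.89, 7.75 and 7.36 in wild-type libraries (0.089). Hoxa9, also a gene of blood progenitors, stood at 5.91, 6.73 and 5.82 CPM in knockout libraries, against 5.67, 5.12 and 6.06 in wild-type libraries (0.13). The groups of both overlapped. In cluster B, Hoxb4 stood at 1.48, 1.84 and 1.66 CPM in knockout libraries, against 1.85, 1.52 and 1.41 in wild-type libraries (0.062). Hoxb6 stood at 0.206, 0.480 and 0.798 CPM in knockout libraries, against 0.328, 0.190 and 0.486 in wild-type libraries (0.56). Hoxb7 stood at 0.378, 0.339 and 0.698 CPM in knockout libraries, against 0.610, 0.687 and 0.370 in wild-type libraries (−0.24). These 3 varied about as widely within the groups as between them. Hoxb9 stood at 1.203, 2.09 and 1.13 CPM in knockout libraries, against 1.17, 0.924 and 1.18 in wild-type libraries (0.45). CRE2 held the high value and the other knockout libraries lay in the wild-type range or just above it.

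In cluster C, Hoxc4 stood at 6.26, 6.87 and 8.41 CPM in knockout libraries, against 8.54, 7.96 and 9.26 in wild-type libraries (−0.26). Hoxc5 stood at 2.92, 2.66 and 2.53 CPM in knockout libraries, against 3.68, 2.89 and 3.56 in wild-type libraries (−0.32). Each overlapped by the value of 1 library, CRE3 for Hoxc4 and CRE1 for Hoxc5. Hoxc6, a forelimb and thoracic gene and the highest of its cluster after Hoxc10, stood at 29.6, 32.5 and 29.1 CPM in knockout libraries, against 28.2, 29.2 and 29.5 in wild-type libraries (0.073). Hoxc8, a thoracic gene, stood at 3.40, 3.53 and 3.26 CPM in knockout libraries, against 3.47, 3.93 and 3.70 in wild-type libraries (−0.12). Hoxc11, a hindlimb gene, stood at 1.89, 1.75 and 2.16 CPM in knockout libraries, against 2.42, 2.27 and 1.94 in wild-type libraries (−0.20). Their groups overlapped. In cluster D, Hoxd4 stood at 3.68, 5.03 and 4.16 CPM in knockout libraries, against 4.46, 4.48 and 3.93 in wild-type libraries (0.0064). Hoxd8 stood at 13.5, 16.9 and 13.9 CPM in knockout libraries, against 12.5, 15.04 and 13.1 in wild-type libraries (0.13). Hoxd9, a gene of the upper limb segment, stood at 11.3, 10.7 and 10.51 CPM in knockout libraries, against 11.6, 12.7 and 10.3 in wild-type libraries (−0.10). Their groups overlapped. Hoxd11, the partner of Hoxa11 in the middle limb segment, stood at 5.02, 4.72 and 4.95 CPM in knockout libraries, against 4.08, 4.57 and 3.26 in wild-type libraries (0.30). Hoxd11 was above its highest wild-type value in each knockout library without passing the test (adjusted p = 0.0953), and it was called higher without WT2 (0.0475).

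Regulators listed for the hindlimb and the forelimb, which lie outside the clusters, were present together in both groups. Pitx1 and Tbx4 were listed as hindlimb genes and Tbx5 as a forelimb gene, and their levels alone do not set limb identity here. Pitx1 stood at 44.8, 44.96 and 43.5 CPM in knockout libraries, against 59.3, 61.5 and 59.9 in wild-type libraries (log2 fold change −0.44, SE 0.0437, adjusted p = 3.05e-07), a fall. Tbx4 stood at 40.8, 38.1 and 40.03 CPM in knockout libraries, against 28.0, 28.9 and 30.4 in wild-type libraries (log2 fold change 0.44, SE 0.0534, adjusted p = 2.65e-06), a rise. Tbx5, also detected in each library, stood at 9.66, 10.48 and 11.3 CPM in knockout libraries, against 14.9, 14.7 and 14.1 in wild-type libraries (log2 fold change −0.47, SE 0.0842, adjusted p = 1.61e-04). Each of these 3 directions held with total counts. The hindlimb factor Isl1 was at 0.233 to 0.447 CPM in the knockout against 0.278 to 0.497 CPM in the wild type and was not called (log2 fold change −0.23, SE 0.449, adjusted p = 0.676), so of 3 tested hindlimb genes 1 rose and 1 fell. The FPKM ratio of Tbx4 to Pitx1 was 0.702, 0.653 and 0.709 in knockout libraries, against 0.364, 0.362 and 0.391 in wild-type libraries. That of Tbx5 to Tbx4 was 0.145, 0.169 and 0.174 in knockout libraries, against 0.326, 0.312 and 0.285 in wild-type libraries. Both pairs were chosen after the values were seen, and neither ratio overlapped between the groups. Each pair sets a gene called higher against a gene called lower, so the ratios restate those calls.

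**Figure D4:**
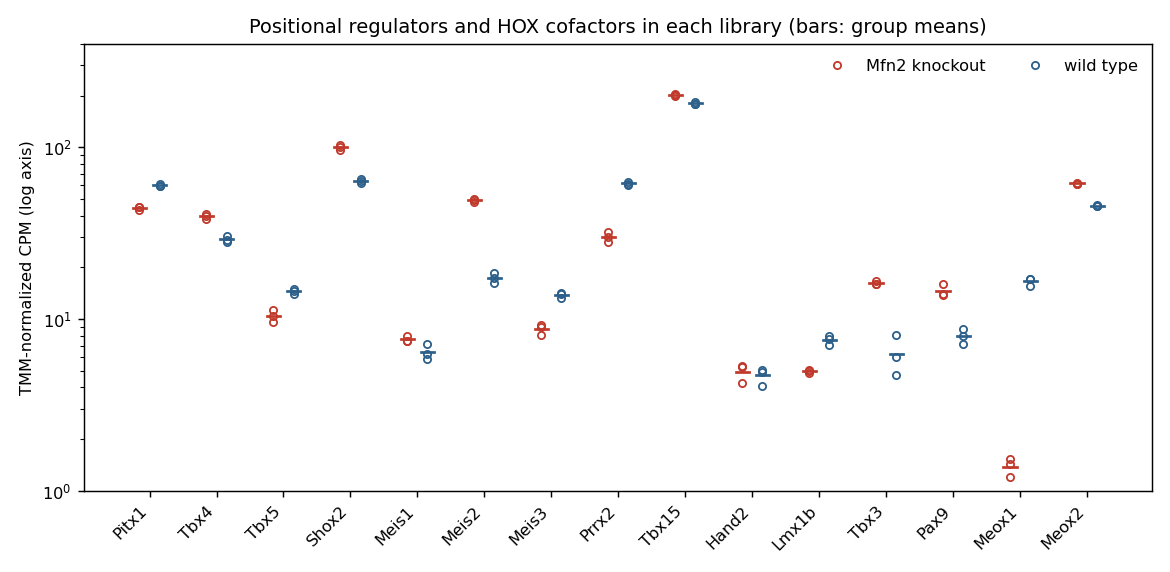
TMM-normalized CPM (logarithmic axis) of 15 positional regulators and HOX cofactors in the 3 Mfn2 knockout libraries (red, left) and the 3 wild-type libraries (blue, right); circles are libraries and bars group means. Pitx1, Tbx4 and Tbx5 are detected in every library, Meis2 and Shox2 have all knockout points above the wild-type points, and Prrx2 and Meox1 all below.

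Regulators of the proximal limb and girdles had 5 of 15 tested members higher (33.3%) and 6 lower (40%), with a median log2 fold change of 0.074. Over all tested genes 30.7% were called higher and 32.1% lower, with a median of −0.021, and the counts of this and the following lists stand beside those shares. With total counts 2 were higher and 7 lower (13.3% and 46.7%), beside 18.6% and 50.8% of all genes. Meis2, a marker of the limb stump nearest the trunk, stood at 49.9, 49.2 and 48.3 CPM in knockout libraries, against 17.3, 16.3 and 18.4 in wild-type libraries (log2 fold change 1.501, SE 0.0565, adjusted p = 2.06e-12). Shox2, needed for the upper limb bone, stood at 101, 103 and 96.4 CPM in knockout libraries, against 65.9, 63.6 and 62.4 in wild-type libraries (log2 fold change 0.65, SE 0.0419, adjusted p = 1.79e-09). Prrx2, a limb mesenchyme factor, fell, with 30.1 ± 2.11 CPM over knockout libraries, against 61.6 ± 0.903 over wild-type libraries (log2 fold change −1.03, SE 0.0533, adjusted p = 1.03e-10). Among 10 tested genes of dorsoventral and anteroposterior limb patterning, 2 rose (20%) and 5 fell (50%; median −0.35). The number lower was 3 without CRE1, CRE2, WT1, WT2 or WT3 and 4 without CRE3. The dorsal factor Lmx1b stood at 4.97 ± 0.0766 CPM over knockout libraries, against 7.56 ± 0.474 over wild-type libraries (log2 fold change −0.60, SE 0.112, adjusted p = 2.29e-04), Tbx3 at 16.2 ± 0.322 CPM over knockout libraries, against 6.28 ± 1.70 over wild-type libraries (log2 fold change 1.37, SE 0.139, adjusted p = 4.12e-07), and the BMP antagonist Grem1 at 864 ± 33.8 CPM over knockout libraries, against 297 ± 5.76 over wild-type libraries (log2 fold change 1.54, SE 0.0322, adjusted p = 1.46e-15).

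Genes of other skeletal regions were low or mixed. In the axial list 3 of 7 tested members rose and 2 fell (median 0.44). Meox1, a somite factor, stood at 1.203, 1.53 and 1.43 CPM in knockout libraries, against 17.0, 15.6 and 17.2 in wild-type libraries (log2 fold change −3.57, SE 0.122, adjusted p = 6.13e-13), while Meox2 stood at 61.8 ± 0.537 CPM over knockout libraries, against 45.6 ± 0.377 over wild-type libraries (log2 fold change 0.44, SE 0.0420, adjusted p = 2.04e-07) and Pax9, a sclerotome and tooth gene, at 14.6 ± 1.24 CPM over knockout libraries, against 7.999 ± 0.787 over wild-type libraries (log2 fold change 0.87, SE 0.0993, adjusted p = 1.46e-06). Of 20 craniofacial and neural crest genes 10 passed the filter, with 4 higher and 2 lower (median 0.15), or 2 higher and 3 lower with total counts. Dlx5, which bone-forming cells also express, stood at 0.917 ± 0.389 CPM over knockout libraries, against 3.92 ± 0.697 over wild-type libraries (log2 fold change −2.10, SE 0.260, adjusted p = 3.68e-06). Dlx3 stood at 2.53 ± 0.719 CPM over knockout libraries, against 0.868 ± 0.212 over wild-type libraries (log2 fold change 1.54, SE 0.286, adjusted p = 2.31e-04) and Sox10, a neural crest and nerve-sheath gene, at 1.35 ± 0.117 CPM over knockout libraries, against 0.303 ± 0.173 over wild-type libraries (log2 fold change 2.14, SE 0.411, adjusted p = 3.14e-04). The osteoblast markers summed to 10609.9 to 12033 CPM among knockout libraries, against 2454 to 2539 CPM among wild-type libraries, with 2 of 7 tested members higher and 5 lower. Nearly all of that sum was Spp1, picked out after its values were seen, at 11540.0 ± 813 CPM over knockout libraries, against 2405 ± 51.5 over wild-type libraries (log2 fold change 2.26, SE 0.0390, adjusted p = 1.66e-16).

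HOX proteins bind DNA with partners from the TALE class, which also holds repressors such as Tgif1. Of 11 tested members of the whole class 3 rose and 4 fell (27.3% and 36.4%, median 0.068), with 5 higher without WT2. Tgif1, a TALE repressor, stood at 56.9 ± 3.49 CPM over knockout libraries, against 30.7 ± 2.69 over wild-type libraries (log2 fold change 0.89, SE 0.0640, adjusted p = 6.38e-09), and Meis2 is given above.

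Polycomb proteins, which keep HOX genes off outside their domain, had 10 of 31 tested members higher and 10 lower (32.3% each; median 0.024), shares near the 30.7% and 32.1% over all tested genes. With total counts 7 were higher and 16 lower (22.6% and 51.6%), again near the 18.6% and 50.8% over all genes. Suz12, a core subunit of the complex that methylates histone H3, stood at 108 ± 7.63 CPM over knockout libraries, against 51.2 ± 3.08 over wild-type libraries (log2 fold change 1.07, SE 0.0559, adjusted p = 1.12e-10). Aebp2, its accessory subunit, stood at 107 ± 3.03 CPM over knockout libraries, against 78.1 ± 0.438 over wild-type libraries (log2 fold change 0.46, SE 0.0383, adjusted p = 3.76e-08). Pcgf5, of a Polycomb ubiquitin ligase complex, stood at 70.1, 71.0 and 75.9 CPM in knockout libraries, against 16.3, 15.4 and 15.3 in wild-type libraries (log2 fold change 2.21, SE 0.0535, adjusted p = 8.34e-15). The catalytic subunit Ezh2, named after its values were seen and known to follow proliferation, fell (log2 fold change −1.20, SE 0.138, adjusted p = 1.58e-06). The part of proliferation in that fall was not tested. Among Trithorax proteins and demethylases that oppose Polycomb, 3 of 15 rose (20%) and 5 fell (33.3%; median −0.029). With total counts 1 rose and 11 fell (6.67% and 73.3%), and 3 fell without CRE2, CRE3, WT1 or WT2. Psip1, which tethers MLL complexes, stood at 30.1 ± 1.27 CPM over knockout libraries, against 52.8 ± 0.570 over wild-type libraries (log2 fold change −0.81, SE 0.0489, adjusted p = 7.35e-10), the demethylase Kdm6b at 52.4 ± 2.67 CPM over knockout libraries, against 40.1 ± 1.24 over wild-type libraries (log2 fold change 0.39, SE 0.0505, adjusted p = 6.84e-06) and its relative Kdm6a at 34.1 ± 2.34 CPM over knockout libraries, against 42.3 ± 2.90 over wild-type libraries (log2 fold change −0.31, SE 0.0627, adjusted p = 4.93e-04).

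Retinoic acid is a classic inducer of low-numbered HOX genes, and the list of inputs to the clusters gave 10 rises and 7 falls among 20 tested genes (50% and 35%; median 0.20), beside 30.7% and 32.1% of all tested genes. With total counts it gave 8 rises and 8 falls (40% each), beside 18.6% and 50.8% of all. Of the members with the smallest p, the retinaldehyde dehydrogenase Aldh1a1 stood at 117 ± 2.09 CPM over knockout libraries, against 224 ± 5.87 over wild-type libraries (log2 fold change −0.93, SE 0.0345, adjusted p = 1.71e-12), a fall. The retinaldehyde reductase Dhrs3 stood at 79.1 ± 2.36 CPM over knockout libraries, against 136 ± 4.24 over wild-type libraries (log2 fold change −0.78, SE 0.0399, adjusted p = 9.35e-11), also a fall. Other retinoid genes rose, and the next 4 were named after their values were seen. Aldh1a2, which makes retinoic acid, stood at 7.18, 5.99 and 5.89 CPM in knockout libraries, against 0.610, 0.640 and 0.555 in wild-type libraries (log2 fold change 3.39, SE 0.194, adjusted p = 3.84e-10). The receptor and target Rarb stood at 1.82, 1.47 and 0.798 CPM in knockout libraries, against 0.0938, 0.237 and 0.162 in wild-type libraries (log2 fold change 3.03, SE 0.463, adjusted p = 3.50e-05). The binding protein Crabp2 (log2 fold change 1.77, SE 0.113, adjusted p = 1.41e-09) and the retinol dehydrogenase Rdh10 (log2 fold change 1.08, SE 0.0809, adjusted p = 1.07e-08) rose too. Cdx2 and Cyp26c1 were at 0 in every knockout library and at most 0.0474 CPM in any wild-type library.

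Of the noncoding genes in the clusters 3 were tested. Hotairm1, a transcript of cluster A, stood at 1.68, 1.55 and 1.53 CPM in knockout libraries, against 0.680, 0.829 and 1.02 in wild-type libraries and rose (log2 fold change 0.91, SE 0.279, adjusted p = 0.0102), Hoxa11os is given above, and Hotair, between Hoxc11 and Hoxc12, stood at 0.172, 0.198 and 0.299 CPM in knockout libraries, against 0.352, 0.592 and 0.393 in wild-type libraries and was not called (log2 fold change −0.99, SE 0.473, adjusted p = 0.0809). Genes that flank the clusters gave 1 rise and 4 falls among 9 tested (11.1% and 44.4%; median −0.11), 1 rise and 7 falls with total counts, and 2 rises without CRE2. Skap2, beside cluster A, stood at 46.3 ± 4.28 CPM over knockout libraries, against 60.8 ± 1.54 over wild-type libraries (log2 fold change −0.40, SE 0.0590, adjusted p = 2.68e-05), Lnpk, beside cluster D, at 23.1 ± 1.39 CPM over knockout libraries, against 30.2 ± 1.28 over wild-type libraries (log2 fold change −0.38, SE 0.0618, adjusted p = 6.11e-05), and Calcoco1, near cluster C, at 60.3 ± 0.460 CPM over knockout libraries, against 72.9 ± 0.810 over wild-type libraries (log2 fold change −0.27, SE 0.0400, adjusted p = 2.21e-05). In RefSeq, 19 of the 36 members overlap another gene of the table, and their separate counts are uncertain. Among them are Hoxa3 with Hoxa4 to Hoxa6, Hoxb3 with Hoxb4, Hoxd3 with Hoxd4 and Hoxd10 with Hoxd11. Called members among them are Hoxa10 with Gm52902, Hoxa11 with Hoxa11os, Hoxb2 with Hoxb3os and Hoxc9 with Gm36878.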

How the data were processed

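RNA was measured in 6 libraries of mouse chondrocytes, prepared from total RNA with the VAHTS Universal V6 reagents according to the labels' protocols. HTSeq, HISAT2 and fastp are named beside GRCm39 in the submitters' processing notes. The sources used here do not give versions, roles, annotation or strand. The authors deposited whole-number read counts per gene symbol. They also deposited FPKM values, which matched those counts after scaling by column total and a fixed length per gene. WT columns matched titles by number. CRE columns showed their group alone and served as its replicates.

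Counts of the whole table were fitted in R 4.3.3 by edgeR 4.0.16: filterByExpr (minimum count 10), TMM factors, group as the only term, and a two-sided quasi-likelihood test. The biological coefficient of variation was 4.88%. SE is the size of the log2 fold change over the square root of F. HOX genes are reported singly; from other lists the 3 tested genes with the smallest p, or all of up to 4, are named, apart from some genes not reported here, and any other gene is said to be chosen after its values were seen. The members and lists were chosen with earlier results of these data known. Alternatives were DESeq2 1.42.0, limma 3.58.1 (voom, and on log2(FPKM + 1) and log2(FPKM + 0.1)), other scaling factors and filters, each library left out, and a replicate block. Replicates differed beyond sampling noise (chi-square per degree of freedom 3.19 to 8.09). Intervals and limits cover counting error only. The fitting was tested on simulated data with 200 changed genes. Far more genes were called here, so that simulation does not bear on the choice of scaling factors.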

Additional observations from a re-analysis of the deposited data

How the results depend on the processing

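Hoxa10, Hoxc10, Hoxa13 and Hoxd1 were called in the same direction under every alternative that tested them. The number of HOX genes called higher was 3 as reported above, 1 with upper-quartile factors, total counts, a CPM above 1 in at least 3 libraries or unfiltered log2(FPKM + 1), and 0 in limma on log2(FPKM + 1) or log2(FPKM + 0.1) after a filter on mean FPKM, set at 1. With that CPM filter and the FPKM filters Hoxd1 and Hoxb2 were not tested. The number called lower was 5 as reported above, 9 with upper-quartile factors, 11 with total counts, 13 in both filtered FPKM fits and 14 without the FPKM filter; FPKM is scaled to total counts. Leaving out 1 library gave 2 to 3 higher and 3 to 5 lower, the 3 without WT3, and 8660 to 9547 calls over all genes. Hoxa11 turned to −0.012 with total counts and to −0.011 in each of the 3 FPKM fits, and Hoxc6 turned to −0.13 with log2(FPKM + 1) and −0.14 with log2(FPKM + 0.1) of filtered genes (adjusted p = 0.0481 and 0.0485). Over all alternatives the adjusted p ranged from 0.00162 to 0.832 for Hoxa11, 0.0107 to 0.139 for Hoxb2, 0.00174 to 0.190 for Hoxc9, 0.00369 to 0.118 for Hoxc13, 0.00143 to 0.358 for Hoxa3, 0.0481 to 0.804 for Hoxc6 and 0.00220 to 0.542 for Hoxd10. The posterior share differed by −3.80 percentage points, by −2.09 without Hoxa10 and by −4.39 for paralogs 10 to 13. With a library left out it ranged from −4.04 to −3.54. Numbers at the ends of the column names did not pair the libraries: same-numbered libraries deviated from their group means with correlations of −0.057 to 0.0060, and a replicate block gave 2 HOX genes higher, 4 lower and 9094 calls. Depth limits the members under about 1 CPM, such as Hoxb2, whose call was lost without any of 5 single libraries. The untested Hoxc12 had adjusted p of 0.0325 and 0.0759 in the alternatives that gave a value.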
